A study of Sus scrofa domesticus with 16 samples.

Results

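The genes described here are those of ubiquitin conjugation and deubiquitination. They were chosen by name, with earlier results of these data known. The rule took annotated genes whose symbol starts with UBE2, UBE3, UBA, USP and a digit, UCHL, OTU, CUL, FBXO, FBXW or FBXL. It set UBE2C and USP18 aside. The rule gave 73 genes out of 6765 genes that the annotation names through a probe set of 1 symbol, and these 73 were covered by 125 of 23999 probe sets. A further 6 probe sets under these names carried several symbols and were not used. Each gene was represented by its brightest probe set, that is the probe set with the highest mean log2 signal over all arrays. A total of 71 of the 73 genes passed the filter on low signal and were tested. The E3 ligase UBE3D and the mitochondrial deubiquitinase USP30 did not pass it, with mean log2 signals of 5.60 and 5.31, and no difference is given for either.

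Whole adrenal glands of 16 domestic pigs were profiled, each on 1 Affymetrix Porcine Genome Array hybridised with biotinylated cRNA from total RNA. Unfamiliar pigs had been mixed, and the submitters selected 8 high stress animals from a high aggressiveness mixing treatment and 8 low stress animals from a low aggressiveness one. The 2 groups were therefore picked to differ in aggressive behaviour and plasma cortisol, and both had been mixed with strangers, so that neither is an unmixed control. Breed, age and sex are not given in the sources used here. Each array is a separate animal, and the p-values measure the spread between these animals. For arrays, precision is limited by their number.

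Ubiquitin is a small protein that is attached to other proteins in a relay. An E1 enzyme activates it, an E2 conjugating enzyme carries it, and an E3 ligase chooses the substrate. Some chains of ubiquitin send the substrate to the proteasome for degradation, and others change its location or its partners. Cullins are the scaffolds of the largest family of E3 ligases, F-box proteins are the exchangeable substrate receptors of the cullin CUL1, and the cullins are themselves switched on by attachment of the ubiquitin relative NEDD8. Deubiquitinases of the USP, UCHL and OTU families cut ubiquitin off again. In the adrenal, as elsewhere, the system sets the turnover of regulators and enzymes, and in skeletal muscle glucocorticoids, the steroid class made by the adrenal cortex, are known to induce the F-box gene FBXO32.

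The arrays carried the RNA of both adrenal compartments. For the steroid-producing cortex 8 of 11 listed markers were measured, all 8 above the filter, with a mean log2 signal (± SD, 8 animals a group) of 13.01 ± 0.11 in the high and 12.99 ± 0.16 in the low stress group. For chromaffin cells of the medulla 7 of 12 were measured, all 7 above the filter, with 12.37 ± 0.32 and 12.32 ± 0.30, a difference of 0.046 (two-sided exact permutation test, p = 0.772). Fat markers (ADIPOQ, FABP4 and LEP) averaged 5.62 ± 0.77 in high stress, ranging from 4.32 to 6.58, and 6.40 ± 0.38 in low stress, ranging from 5.88 to 6.93, and their part in the results was not tested. Of these, ADIPOQ lay below the filter, with a mean log2 signal of 4.23. Its difference, high minus low stress, was -1.95, beside -0.072 for FABP4 and -0.32 for LEP. Signals of the dap control, a bacterial transcript added to the samples, split the 16 arrays into a low-spike set (mean signal 358) and a high-spike set (mean signal 2738), each with 4 high and 4 low stress animals. The labels do not mention these sets. They differed in the 3' to 5' ratio of actin, a measure of how complete the labelled RNA is, with a log2 ratio of 3.77 ± 0.35 in the low-spike and 2.76 ± 0.25 in the high-spike set. The same ratio was 3.15 ± 0.62 in high and 3.38 ± 0.60 in low stress animals. The 3' to 5' log2 ratio of GAPDH went the other way between the sets. It was 0.47 ± 0.071 in the low-spike and 0.60 ± 0.098 in the high-spike set. Pearson correlations between arrays of 1 stress group ranged from 0.917 to 0.972.

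No gene of the ubiquitin system passed the test between high and low stress pigs. With limma over 14399 probe sets and Benjamini-Hochberg adjustment, 0 of 71 members had an adjusted p under 0.05, and the background was 0% of all probe sets tested. Every member had an adjusted p of 0.999. At an unadjusted p under 0.05 there were 2 members, FBXW4 and FBXO9, or 2.82% of 71 against 3.19% of all probe sets. With the spike-in set as a block there were 0 members at an adjusted p under 0.05 (0.00694% of all probe sets) and 3 at an unadjusted p under 0.05, which is 4.23% against 6.38% of all. No member had groups that did not overlap, where 0.0208% of all probe sets did.

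The animals' numbers in the labels begin with 3, 4, 5 or 8, each digit in 2 animals of either group, and what the digit stands for is not stated. Each digit within each spike-in set held 1 high and 1 low stress animal, which makes 8 pairs. With these pairs as a block, an analysis chosen after seeing the data, 0 members passed the test (limma; 0% of all probe sets) and 5 had an unadjusted p under 0.05, or 7.04% against 9.17% of all. They were USP5, FBXO9, FBXO11, FBXW4 and USP10, with limma adjusted p from 0.462 to 0.502. In all 8 pairs 3 members were higher in the high stress animal (4.23%, against 0.771% of all probe sets), namely FBXW4, FBXO9 and UBE2D2, and USP5 was higher in 7 of 8. Lower in all 8 pairs was 1 member, FBXO11 (1.41%, against 0.945% of all). With group and set means removed, the 2 arrays of a pair correlated in their deviations at -0.055 to 0.28, over 0.1 in 4 of the 8 pairs. Arrays that do not form a pair were not compared in this way, so these values cannot show whether the digit pairs the animals.

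The differences, given here as high stress minus low stress on the log2 scale, were small. They ran from -0.25 to 0.26 over the 71 members, and 10 of them (14.1%) were beyond 0.2 in either direction, against 22.6% of all probe sets. The median was 0.0069 over the members and -0.030 over all probe sets, with 36 members higher and 35 lower in high stress animals. That is 50.7% of the members higher, against 41.6% of all probe sets. The 95% confidence interval lay within ±0.5 for 52 members and within ±1 for all 71, so a doubling or halving fell outside the interval of each tested member. The median SD of a member over the 16 arrays was 0.27, against 0.32 for all probe sets. Because whole glands were used, fewer cells of a type and less RNA per cell cannot be told apart in any of these values.

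**Figure D1:**
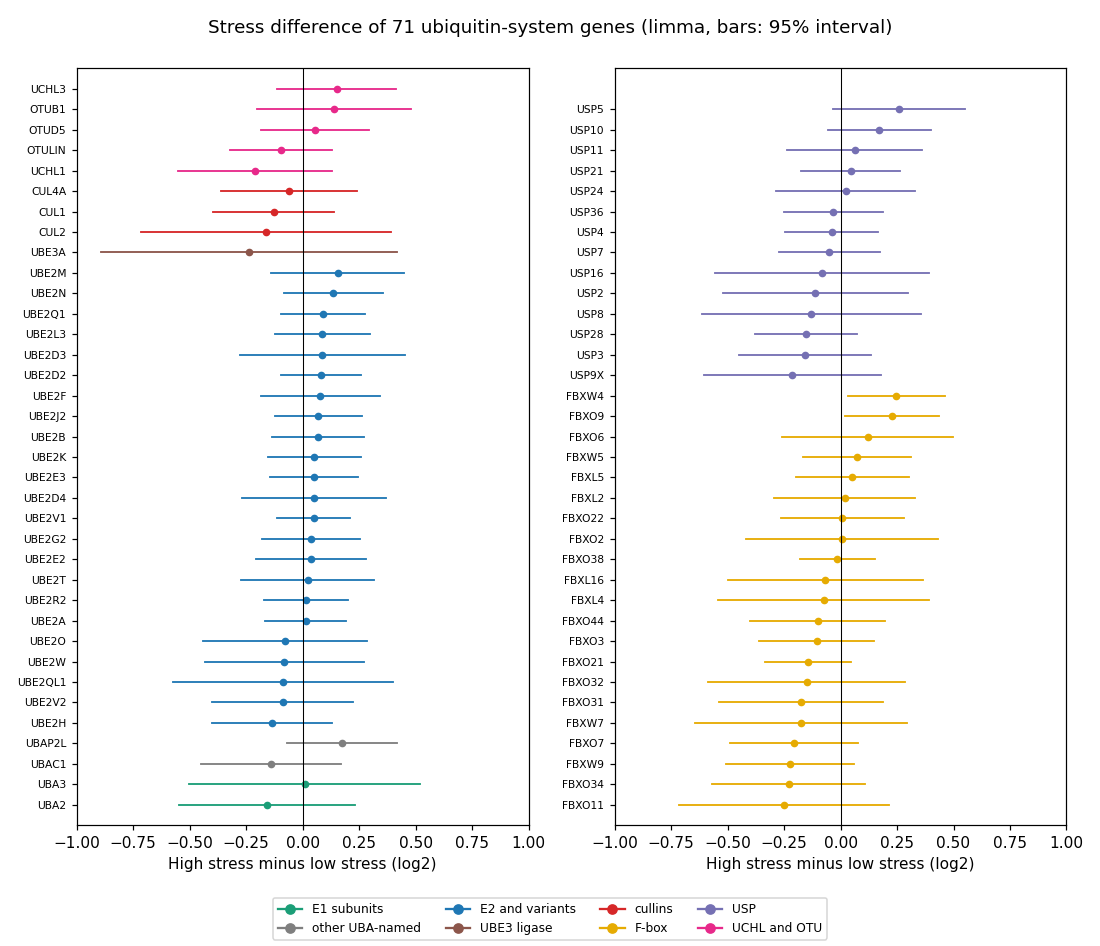
Difference between 8 high stress and 8 low stress animals for each of the 71 tested genes, on the log2 scale, with points for the limma estimate and bars for its 95% confidence interval, coloured by role. All but the intervals of FBXW4 and FBXO9 cross 0, and every interval lies within ±1.

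E1 subunits were represented by UBA2, the catalytic subunit of the enzyme that activates the ubiquitin relative SUMO, and UBA3, its counterpart for NEDD8. UBA2 had log2 signals with a lowest, median and highest value of 9.54, 10.14 and 10.81 in high stress and 9.99, 10.27 and 10.89 in low stress animals. The ranges overlapped over most of their length, and the difference was -0.16 (SE 0.19, 95% interval -0.55 to 0.23). UBA3 ranged from 9.33 to 10.82 in high stress and from 9.63 to 11.04 in low stress, with a difference of 0.0087 (SE 0.24). The rule also took in UBAP2L, an RNA-binding protein with a ubiquitin-associated domain, and UBAC1, a subunit of the KPC ubiquitin ligase. Their differences were 0.17 (SE 0.12) and -0.14 (SE 0.15).

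The 23 E2 enzymes and E2 variants had the lowest median SD of the classes over the 16 arrays, 0.19. Their SDs ran from 0.091 for UBE2V1, at a mean log2 signal of 11.88, to 0.48 for UBE2QL1, at 7.0. The SDs were not adjusted for signal level. Of the 23, 18 had a higher and 5 a lower mean in high stress animals, with a median difference of 0.050, while 41.6% of all probe sets were higher. The count of 18 was the same after quantile normalization and after centring each array on its median, while the share of all probe sets that were higher moved to 49.6% and 60.8%, and the count of all members that were higher from 36 to 38 and 42. Averaging the probe sets of a gene turned UBE2A, UBE2E3, UBE2L3, UBE2T and UBE2V1 below 0. For 6 of the 23 the sign of the difference was not the same in the 2 spike-in sets. None of the 23 passed the test or had an unadjusted p under 0.05, and the interval lay within ±0.5 for 22 of them. UBE2N, which with a partner such as UBE2V1 builds signalling rather than degradative chains, gave 12.19, 12.46 and 12.75 (lowest, median, highest) in high stress and 12.17, 12.30 and 12.68 in low stress. The groups overlapped almost fully, although 7 of 8 high stress animals were above the low stress mean, and the difference was 0.14 (SE 0.10, interval -0.084 to 0.35). For UBE2V1 itself, a variant without the catalytic cysteine, the difference was 0.048 (SE 0.077). UBE2M, the main E2 that passes NEDD8 to cullins, gave 9.67, 10.06 and 10.36 in high stress and 9.47, 9.88 and 10.38 in low stress, a difference of 0.15 (SE 0.14). UBE2D2 and UBE2D3, close relatives that serve many ligases, differed by 0.081 (SE 0.084) and 0.087 (SE 0.17). Members of this family are alike in sequence, and how far their probe sets pick up each other's transcripts was not tested. UBE2H had the lowest difference of the class, -0.13 (SE 0.13).

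Of the UBE3 ligases only UBE3A, the HECT ligase E6AP that is mutated in Angelman syndrome, was tested. It gave 8.72, 9.56 and 10.80 in high stress and 9.10, 9.91 and 10.93 in low stress animals. This was the widest spread of any tested member, with an SD of 0.67 over the 16 arrays, and the groups overlapped throughout. The difference was -0.24 (SE 0.31), and its interval, -0.89 to 0.42, was the widest among the members named here.

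All 3 cullins had a lower mean in high stress animals as deposited, 2 of 3 after centring on the array median, and none passed the test. Of all probe sets 58.4% were lower as deposited, and 60.8% were higher after centring. CUL1, the scaffold of the SCF ligases that F-box proteins join, gave 9.60, 9.89 and 10.26 in high stress and 9.73, 10.03 and 10.43 in low stress. These ranges overlapped, and the difference was -0.13 (SE 0.13, interval -0.40 to 0.14). For CUL2, the scaffold of the VHL ligase, the difference was -0.16 (SE 0.26). CUL4A, which binds substrates through DDB1, differed by -0.061 (SE 0.14), and this sign turned to 0.012 when arrays were centred on their median.

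F-box proteins held the members with the smallest p in the stress comparison, in both directions. Of 21 tested, 8 were higher and 13 lower in high stress animals, with a median of -0.075, where 58.4% of all probe sets were lower. After centring on the array median the counts were 10 and 11 with a median of -0.0023, where 60.8% of all probe sets were higher. FBXW4, a receptor with WD repeats, gave 7.61, 8.0 and 8.21 in high stress and 7.48, 7.76 and 7.93 in low stress. The groups overlapped, with 7 of 8 high stress animals above the low stress mean. The difference was 0.25 (SE 0.10, interval 0.032 to 0.46, unadjusted p = 0.0267, limma adjusted p = 0.999), or 1.19-fold. It was 0.41 in the low-spike set, where the 4 high stress values (8.0 to 8.21) all lay above the 4 low stress values (7.48 to 7.84), and 0.086 in the high-spike set. Such a separation of 4 against 4, in either direction, was seen for 3 members in the low-spike set (4.23%, against 4.53% of all probe sets), FBXW4, USP5 and UBE2J2, and for 1 in the high-spike set (1.41%, against 1.71% of all), USP7, lower in high stress. A second probe set of FBXW4 went the other way, at -0.16 (SE 0.14), and correlated with the first at r = -0.30 over the 16 arrays.

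FBXO9, another substrate receptor, was the other member at an unadjusted p under 0.05. Its log2 signal was 10.68, 10.91 and 11.26 in high stress and 10.51, 10.67 and 10.86 in low stress animals. All 8 high stress animals were above the low stress mean, while 4 of 8 low stress animals were above the lowest high stress animal. The difference was 0.23 (SE 0.099, interval 0.019 to 0.44, unadjusted p = 0.0340, limma adjusted p = 0.999), or 1.17-fold, and it was 0.23 in the low-spike and 0.22 in the high-spike set.

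Among F-box genes with a lower mean in high stress, FBXO34 had all 8 high stress animals below the low stress mean. It gave 6.41, 6.79 and 6.95 in high stress and 6.45, 6.99 and 7.63 in low stress. The difference was -0.23 (SE 0.16, interval -0.57 to 0.11). For FBXO7, a receptor that also acts on mitochondria, the difference was -0.20 (SE 0.13), and for FBXO21 it was -0.15 (SE 0.090). FBXO21 had 4 probe sets above the filter, and the dimmest of these stood at -0.43 (SE 0.14, unadjusted p = 0.00671, limma adjusted p = 0.999), while the other two stood at 0.16 and 0.016. FBXW9 differed by -0.22 (SE 0.13), its 1 low value in a low stress animal pulling against this, since without that animal the difference was -0.32. Its second kept probe set stood at 0.51 (SE 0.33).

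FBXO32 (atrogin-1) is the F-box gene known as a glucocorticoid-induced driver of muscle protein breakdown. It gave 7.45, 8.05 and 8.37 in high stress and 7.23, 8.22 and 8.71 in low stress adrenals. The groups overlapped fully and the difference was -0.15 (SE 0.21, interval -0.58 to 0.29). Within the spike-in sets it stood at -0.59 in the low-spike and 0.29 in the high-spike set. This was the single member, or 1.41% of 71, with an unadjusted p under 0.05 for a stress difference that itself differs between the sets (interaction 0.88, unadjusted p = 0.0281, limma adjusted p = 0.9996), where 2.92% of all probe sets had one. After adjustment there was no such member, and 0% of all probe sets passed, so opposite signs in the 2 sets are not shown to be a difference. Of the skeletal muscle markers, 1 of 3 measured was above the filter, and their mean was 5.32 ± 0.68 in high and 5.73 ± 0.74 in low stress animals. FBXW7, the receptor that removes cyclin E and MYC, differed by -0.18 (SE 0.22).

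Of the 14 USP deubiquitinases tested, 5 were higher and 9 lower in high stress animals, with a median of -0.045. This balance turned to 8 and 6, with a median of 0.028, after centring on the array median. Over all probe sets the share that was higher moved from 41.6% to 60.8% with the same centring. USP5, which takes apart free ubiquitin chains, had the largest positive difference of all members. It gave 8.54, 9.35 and 9.45 in high stress and 8.57, 9.04 and 9.13 in low stress. The difference was 0.26 (SE 0.14, interval -0.033 to 0.55). USP5 also differed between the spike-in sets, and with the set as a block its interval was 0.046 to 0.47 (limma adjusted p = 0.738). As counted above, in the low-spike set the 4 high stress values (9.38 to 9.45) lay above the 4 low stress values (9.03 to 9.13), and in the high-spike set the ranges overlapped (8.54 to 9.32 and 8.57 to 9.04).

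USP10 differed by 0.17 (SE 0.11), the same in both sets. USP28, a nuclear deubiquitinase, differed by -0.15 (SE 0.11), and without 1 high stress animal that lay apart it stood at -0.087. For USP3, a histone deubiquitinase, the difference was -0.16 (SE 0.14), and for USP9X, an X-linked member, it was -0.21 (SE 0.19). USP7, the deubiquitinase of MDM2 and p53, stood at -0.050 (SE 0.11). USP2 stood at -0.11 (SE 0.19).

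**Figure D2:**
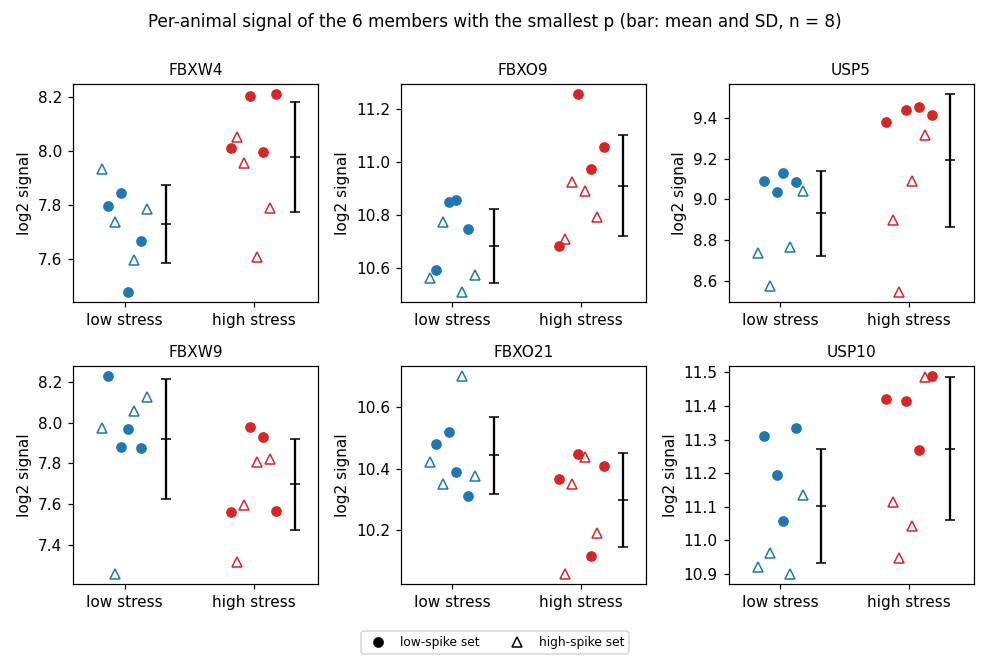
Log2 signal of each animal for the 6 members with the smallest p, in 8 low stress and 8 high stress pigs, with circles for the low-spike and triangles for the high-spike set and bars for the group mean and SD. The groups overlap in every panel, with FBXO9 running from 10.51 to 10.86 in low stress and from 10.68 to 11.26 in high stress.

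The UCHL and OTU deubiquitinases numbered 5, of which 3 were higher and 2 lower, with none past the test. Of all probe sets 41.6% were higher. UCHL1, a hydrolase known as a marker of neurons and neuroendocrine cells and thus of the adrenal medulla, gave 11.52, 12.34 and 12.73 in high stress and 12.19, 12.48 and 12.91 in low stress. Of the 8 high stress animals, 5 were below the low stress mean and the ranges overlapped. The difference was -0.21 (SE 0.16, interval -0.55 to 0.13), and it was 0.029 in the low-spike and -0.45 in the high-spike set. Its relative UCHL3, which acts on ubiquitin and NEDD8, differed by 0.15 (SE 0.13). OTUB1, which cuts degradative chains and also binds and inhibits E2 enzymes, differed by 0.14 (SE 0.16). OTULIN, which removes linear chains, differed by -0.095 (SE 0.11).

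Far larger differences lay between the spike-in sets, each of which holds 4 animals of either stress group. With the stress group as a second term, 24 of 71 members (33.8%) differed between the sets at a limma adjusted p under 0.05, against 40.1% of all probe sets. Of these, 15 (21.1%) were higher in the high-spike set, against 23.7% of all, and 9 (12.7%) were lower, against 16.3% of all. The split moved with scaling. After quantile normalization 16 members were higher (22.5%, against 20.5% of all) and 16 lower (22.5%, against 21.4%). After centring on the array median, which shifted the median of all probe sets from -0.020 to -0.15, 12 were higher (16.9%, against 18.3% of all) and 22 lower (31.0%, against 29.2%). The members' shares lay below those of all probe sets as deposited and on either side of them under the other scalings. For 53 of the 71 members (74.6%) the set difference was larger in size than the stress difference, as it was for 78.3% of all probe sets.

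UBE3A had the largest set difference. It gave 8.72, 9.35 and 9.84 in the low-spike and 9.71, 10.47 and 10.93 in the high-spike set, which left a narrow overlap. That is 1.07 higher on the log2 scale (SE 0.18, limma adjusted p = 0.0003), or 2.10-fold. CUL2 was 0.91 higher (SE 0.15), UBA3 0.83 (SE 0.14) and USP8, a deubiquitinase of endosomes, 0.81 (SE 0.12). UBA2 was 0.64 higher (SE 0.10), with all 8 high-spike values above all 8 low-spike values. So both E1 subunits, UBE3A and CUL1 and CUL2 of the 3 cullins were higher in the high-spike set, while CUL4A, at 0.30, did not pass (limma adjusted p = 0.0543).

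In the other direction OTUB1 gave 10.10, 10.31 and 10.48 in the low-spike and 9.41, 9.76 and 9.92 in the high-spike set. The sets did not overlap, and OTUB1 was lower by -0.57 (SE 0.080, limma adjusted p = 8.2e-05), or 0.672-fold. UBE2M at -0.41 (SE 0.10), USP5 at -0.38 (SE 0.10) and UCHL3 at -0.29 (SE 0.10) also passed, and FBXO2, a receptor for glycoproteins, at -0.41 (SE 0.18) did not (limma adjusted p = 0.0746). Among the 23 E2 enzymes and variants 4 passed as higher and 5 as lower. Of the 21 F-box proteins 2 passed as higher and 0 as lower, and of the 14 USP deubiquitinases 4 and 2. Over all probe sets 23.7% passed as higher and 16.3% as lower, and no class was tested against these shares. UBE2A, counted as lower at -0.19, had a second probe set at 0.15 that correlated with the first at r = -0.39. The sets were split by the dap signal itself, and the actin and GAPDH 3' to 5' ratios given above differed between them in opposite directions. The part of these measures in the differences of the members was not tested.

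**Figure D3:**
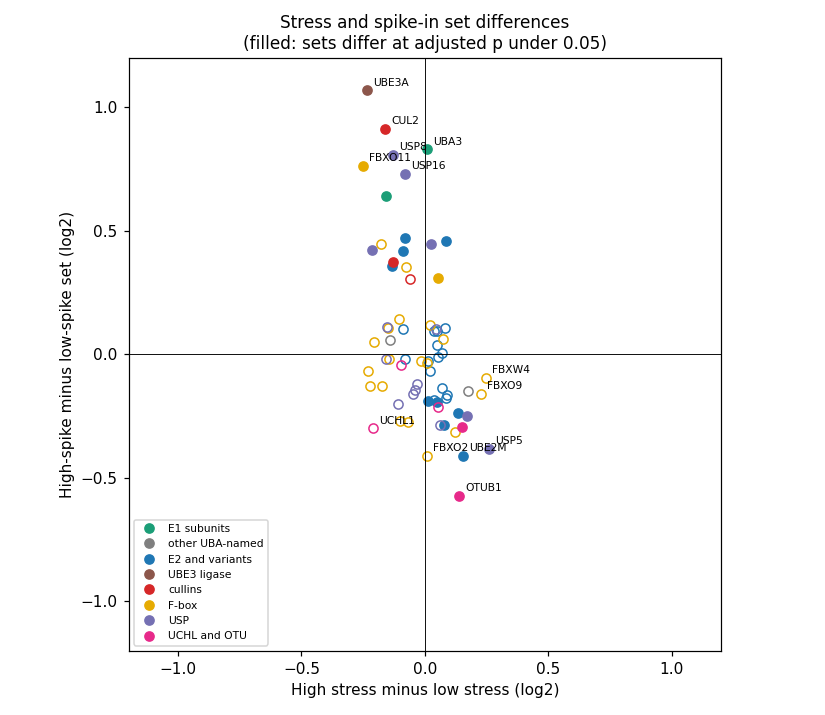
Each tested member by its stress difference (horizontal axis, high minus low stress, log2) and its difference between the spike-in sets (vertical axis, high-spike minus low-spike, log2), filled where the sets differed at an adjusted p under 0.05. The cloud is taller than it is wide, reaching 1.07 for UBE3A and -0.57 for OTUB1 on the vertical axis while staying between -0.25 and 0.26 on the horizontal.

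Because the adrenal holds cortex and medulla in shares that differ from sample to sample, the members were also set against the mean log2 signal of the 7 chromaffin markers. UCHL1 was the member chosen for this by its known expression in such cells, and it was the only such correlation computed. Over the 16 animals Pearson's r was 0.571 (permutation p = 0.0200) and Spearman's rho 0.594 (permutation p = 0.0173), and after quantile normalization r was 0.449 (permutation p = 0.0796). Without the 2 animals farthest from the median marker mean, high stress replicates 3 and 8, r was 0.432 (permutation p = 0.121). The p thus passed 0.05 with all animals on the deposited scale, and not after quantile normalization or without those animals. Pearson's r was 0.701 in the low-spike set (exact permutation p = 0.0507), 0.317 in the high-spike set (exact p = 0.441), 0.804 in high stress (exact p = 0.0164) and 0.350 in low stress animals (exact p = 0.403). The marker mean was 12.48 in the low-spike and 12.22 in the high-spike set, and UCHL1 stood at 12.51 and 12.21. For the r over the 16 animals the permutations ignored the set, and the part of the set in that r was not tested.

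In a limma fit with stress group, spike-in set and marker mean together, added after the data had been seen, 1 of 71 members (1.41%) rose with the marker mean at an adjusted p under 0.05, against 0.215% of all probe sets. None fell, against 0.00694% of all. The member was FBXL16, an F-box protein with leucine-rich repeats, named here because it was the only call. Its log2 signal ranged from 8.36 to 9.69 in high stress and from 8.73 to 9.81 in low stress, and it rose by 1.24 (SE 0.23, limma adjusted p = 0.0427) per log2 unit of the marker mean. This call was lost in 10 of 16 fits that each left out 1 animal, namely low stress replicates 2, 3, 5 and 8 and high stress replicates 1, 3, 4, 6, 7 and 8, with slopes from 1.15 to 1.40 and adjusted p from 0.0291 to 0.131. UBE2QL1, an E2-like gene, had a slope of 1.31 and did not pass (limma adjusted p = 0.138), nor did UCHL1 at 0.56 (limma adjusted p = 0.825). For FBXL16 the stress difference was -0.067 (SE 0.21).

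**Figure D4:**
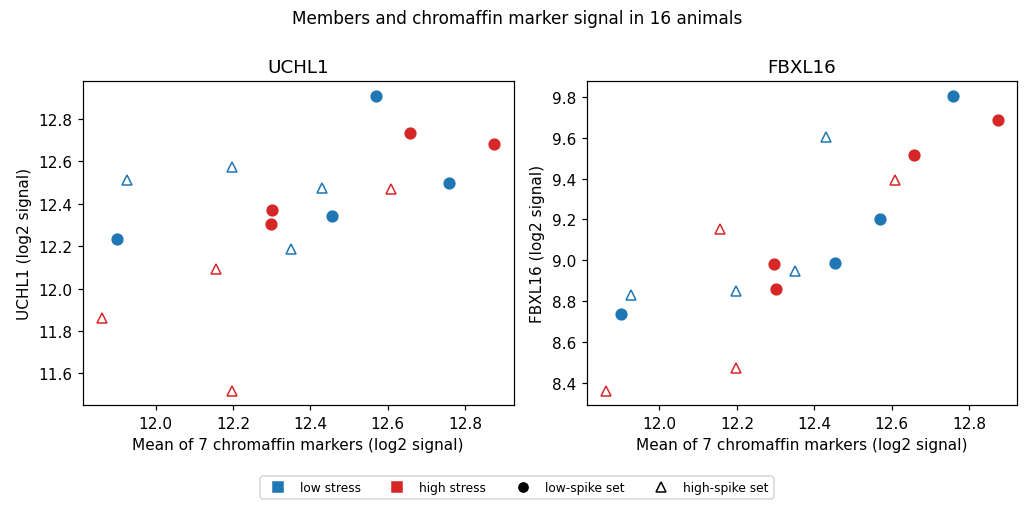
Log2 signal of UCHL1 and FBXL16 in each animal against the mean log2 signal of 7 chromaffin markers, by stress group and spike-in set. UCHL1 rises with the marker mean over the 16 animals (r = 0.571), less so without the 2 animals farthest from the median (r = 0.432), and FBXL16 rises by 1.24 per unit in the fit.

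More than 1 probe set was present for 34 members and more than 1 passed the filter for 21. The 31 dimmer probe sets that passed were compared with the brightest of their gene, and 18 had a stress difference of the same sign. Their correlation with the brightest over the 16 arrays had a median of 0.34 and ran from -0.40 (FBXW9) to 0.95, and 12 of the 31 were over 0.5. For 10 members the probe sets differed in sign, namely FBXW4, FBXW9, FBXO21, UBA3, FBXW7, UBE2A, UBE2E3, UBE2L3, UBE2T and UBE2V1. None of the 31 had an adjusted p under 0.05 (limma). At an unadjusted p under 0.05 there were 2 of the 31, 1 each of FBXO21 and FBXO31, beside 3.19% of all probe sets.

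Other genes of the pathway were counted in the same way. Of 122 listed for ubiquitin and its relatives, cullin partners, the signalosome, the anaphase-promoting complex, other ligases, other deubiquitinases and ubiquitin carriers, 68 were measured and 63 tested. In high stress animals 31 were higher and 32 lower, with a median of -0.0083, where 41.6% of all probe sets were higher. None passed the test (limma), also with the spike-in set as a block. At an unadjusted p under 0.05 there was 1 (1.59%, beside the 3.19% of all probe sets), and with the spike-in set as a block there were 6 (9.52%, beside 6.38% of all). The smallest p belonged to URM1, a ubiquitin-like protein that serves in tRNA modification, with a mean of 9.41 in the high and 9.65 in the low stress group (SD 0.17 and 0.14), a difference of -0.24 (SE 0.095, limma adjusted p = 0.999). MYLIP, the ligase that removes the LDL receptor, stood at -0.30 (SE 0.15). DDB1, the adaptor of CUL4A, stood at 0.21 (SE 0.11), and VCP, the ATPase that extracts ubiquitinated proteins, at 0.15 (SE 0.078).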

How the data were processed

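The authors deposited 1 intensity (MAS5 signal) per probe set and array. Per the submitters' processing notes these came from Affymetrix Expression Console 1.1.1 with MAS5, for which the sources used here give no version. Signals were used on the deposited scale and turned to log2 without a pseudocount. A total of 124 control probe sets were set aside, and 23999 remained, of which 10069 had 1 gene symbol, 198 several and 13732 none in the platform annotation, which can be old. Probe sets with a mean log2 at or above the 40th percentile (6.15, a signal of 71.1) were tested, 14399 in all. High and low stress were compared with limma 3.58.1 (R 4.3.3; lmFit, eBayes, two-sided) with Benjamini-Hochberg adjustment over all 14399 and a threshold of 0.05. Levels of different probe sets were not compared. Spike-in sets were split at the widest gap in the dap signal. Single values were tested by permutation of the animals. Code was tested on simulated data. Replicates were numbered in accession order, and these numbers were not used to pair animals.

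The members and lists were chosen with earlier results of these data known. Genes were named by a rule: the 8 smallest p in each direction, the 3 smallest in each role class, the 4 largest differences between the spike-in sets in each direction, the 5 largest SDs, the 3 smallest interaction p, members with known roles or with probe sets of different sign, and the 4 smallest p in the list of other pathway genes. Of these 40 members were named. FBXL16, FBXO31, FBXO11, UBE2J2 and the members below the filter fall outside the rule and were named after their values were seen. Marker lists for other cell types gave differences from -0.78 (fat), -0.54 (kidney and liver) and -0.40 (skeletal muscle) to 0.24 (smooth muscle), with -0.14 for T and B cells, -0.12 for myeloid cells, -0.042 for endothelium, -0.032 for blood and 0.00059 for fibroblasts. In the fat, kidney and liver, and skeletal muscle lists, ADIPOQ (-1.95), ALB (-0.98), MYL1 (-0.54) and MYLPF (-0.62) lay below the filter. The markers above it stood at -0.072 (FABP4), -0.32 (LEP), -0.088 (APOA1) and -0.051 (CKM).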

Additional observations from a re-analysis of the deposited data

Results flagged for a closer look

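In 2 of the 80 groups checked (40 members in each stress group) 1 animal lay far from the other 7 by Dixon's test, and chance gives about 1 in 20. FBXW9 stood at 7.25 in low stress replicate 3, where the other low stress animals ranged from 7.87 to 8.23, a gap of 0.636 of the range. USP28 stood at 8.26 in high stress replicate 6, where the other high stress animals ranged from 8.64 to 8.98, a gap of 0.529 of the range.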

How the results depend on the processing

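The alternatives were a block for the spike-in set or for the leading digit of the animals' numbers, array weights, an intensity trend with a robust prior, quantile normalization, centring on the array median, a pseudocount at the 20th percentile, other filters, averaging the probe sets of a gene, the chromaffin mean as a covariate, each spike-in set alone, and each animal left out. The labels give no replicate numbers, and the 8 pairs of leading digit and spike-in set, added after seeing the data, changed no call. None of the 1195 alternative values of the 40 named members passed the test (lowest limma adjusted p 0.462, for USP5 with those pairs as a block), and 1146 kept their sign, with 26 members keeping it throughout. The members tested with a higher mean in high stress numbered 31 to 42 over all alternatives. The median log2 fold change of the members tested moved from 0.0069 to 0.080 with centring and lay between -0.031 and 0.0037 when 1 animal was left out. The members called for the chromaffin mean ranged from 0 to 1 when 1 animal was left out. UCHL1's correlation was 0.449 after quantile normalization and 0.432 without the 2 farthest animals. It was 0.701 and 0.317 in the low-spike and high-spike sets, and 0.804 and 0.350 in high and low stress animals. Signs turned for small differences. With centring CUL4A was 0.012 and USP7 0.023, and with array weights UBA3 was -0.0063 and UBE2QL1 0.0073. With the chromaffin covariate FBXO2 was -0.037. With averaged probe sets FBXW9 was 0.14, UBA3 -0.064, UBE2A -0.011, UBE2E3 -0.015, UBE2L3 -0.036, UBE2T -0.024 and UBE2V1 -0.0022. In the low-spike set UCHL1 was 0.029, UBA3 -0.074, UBE2QL1 0.0050, USP7 0.12 and UBE2A -0.021. In the high-spike set OTULIN was 0.077, FBXO2 -0.24, FBXO32 0.29 and UBE2T -0.032. Leaving out 1 animal gave ranges of -0.12 to 0.0056 for CUL4A, -0.083 to 0.10 for FBXO2, -0.082 to 0.13 for UBA3, -0.013 to 0.043 for UBE2A, -0.19 to 0.022 for UBE2QL1 and -0.036 to 0.071 for UBE2T. The cause of these moves was not tested.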
